A study of Mus musculus with 40 samples.

Results

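Splenic B cells of wild-type (WT) mice were compared after 24 h and after 6 h of culture with CpG, a bacterial-type DNA ligand of Toll-like receptor 9. The comparison used 10 of the 40 arrays of the series, chosen by sample title: 5 WT 24 h arrays and 5 WT 6 h arrays. Mice were of the C57BL/6 strain, and the labels name both Bank1+/+ littermates and purchased C57BL/6J mice as the source of WT cells without saying which gave these arrays. The other groups used here were WT at 0 h, labelled as control, WT at 48 h with CpG, and Bank1-/- B cells at 6 and 24 h with CpG, from a line backcrossed for 9 generations. Other spleen cells had been removed with magnetic beads, which typically left more than 95% B220+CD3- cells, and each Illumina bead array read RNA amplified with oligo(dT) primers from 150 ng. Both sides of the comparison had been isolated and cultured with CpG, so the comparison reads time in culture with CpG. No culture without CpG was analysed here. The labels call the samples biological replicates without saying whether each came from its own mouse, so p-values measure the spread between these samples.

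Resting B cells that meet CpG pass first through a burst of early transcription, in which the transcription factor NF-kB, held back by inhibitors of the IkB family, switches on genes for cytokines, survival and its own inhibitors. Growth genes for ribosome building follow, driven in part by Myc. Cells then enter S phase, when E2F factors turn on the replication machinery, and later mitosis, when the DREAM and MMB complexes release genes of the spindle through a promoter element called the cell cycle homology region. Some activated B cells go on towards antibody secretion, which needs an enlarged endoplasmic reticulum (ER).

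Most 6 h arrays were dimmer than the 24 h arrays. Mean raw intensity was 145.7, 230.7, 231.9, 205.7 and 455.1 on the 5 WT 6 h arrays (254 ± 118, SD, n = 5). On the 24 h arrays it ran from 345.6 to 453.4 (393 ± 43.2, SD, n = 5), so 6 h replicate 5 was the only 6 h array as bright as the 24 h arrays. Between 10401 and 16075 of 45281 probes were detected per 6 h array, and between 14714 and 15741 per 24 h array. In Bank1-/- cells the order was the other way round, 420 ± 97.9 at 6 h and 311 ± 73.8 at 24 h (SD, n = 5 each). Each gene was therefore tested with and without the array's log2 mean raw intensity as a covariate. Of the 8 B cell markers on the array, 7 were detected on all 10 arrays, and the other, Pax5, on 1 of the 6 h arrays. Among T cell markers 6 of 10 were detected on none of the 10 arrays, Cd3d, Cd3e, Cd3g, Cd4 and Cd8a among them, and for myeloid cells 9 of 12 were detected on none, Csf1r, Cd14, Itgam and S100a8 among them. For NK cells 5 of 7, for dendritic cells 4 of 8 and for platelets 3 of 7 were detected on none. All 10 arrays detected 2 of the T cell markers, 1 of the NK, 2 of the dendritic and 1 of the red cell markers. No myeloid or platelet marker was detected on all 10. Summed levels of the NK markers ran from log2 11.12 to 11.77 at 6 h and from 10.07 to 11.19 at 24 h, and those of the T cell markers from 10.49 to 10.88 and from 10.4 to 10.52. The part of these cells in the results was not tested. Of 6 red cell markers 4, Slc4a1, Alas2, Sptb and Klf1, were detected on none, and the summed level, which rests on the globins, was lower at 24 h (log2 9.34 to 9.43) than at 6 h (10.34 to 11). In bulk RNA, fewer cells of a type and less RNA per cell cannot be told apart.

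**Figure D1:**
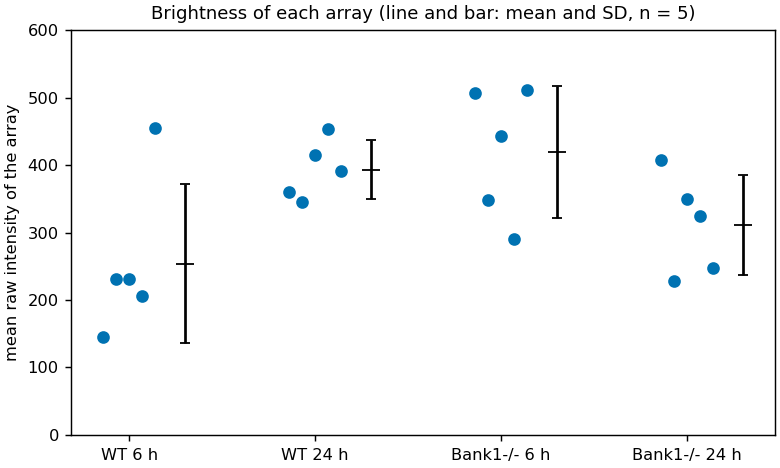
Mean raw intensity of each array in the WT and Bank1-/- groups at 6 and 24 h, with the group mean and SD (n = 5) beside the points. The WT 6 h arrays average 254 with 1 array at 455.1, and the WT 24 h arrays average 393.

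Expression differed widely between the times. Of 9483 genes tested with limma, 6022 (63.5%) passed an adjusted p of 0.05, 3259 higher at 24 h (34.4%) and 2763 lower (29.1%). With brightness as covariate 5037 passed (53.1%), 2602 higher (27.4%) and 2435 lower (25.7%), and 4525 were called in the same direction by both fits. Without 6 h replicate 5 the counts were 6428, and 3794 with the covariate. In 2320 genes (24.5%) every 24 h array lay above every 6 h array, and in 1847 (19.5%) below. Called in both fits and changed at least 2-fold were 907 genes higher at 24 h (9.56%) and 615 lower (6.49%). The bright 6 h array was also read alone, though it entered the fits, so its agreement with the calls is no independent check. On it 5429 of the 6022 called genes (90.2%) lay on the same side of the 24 h mean as called. Of the 4525 called in both fits 4513 did (99.7%). Without that array the fit with the covariate shared 3300 of its 3794 calls with the 5037 from all WT arrays.

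These directions are relative to the normalization. With quantile normalization the median difference over all genes was 0.04 on the log2 scale, and 54.1% of the calls were higher at 24 h. Scaling each array to its median instead gave 5432 calls, 5181 higher and 251 lower (95.4% higher), and moved the median of all genes to 0.58. Under median scaling a list is therefore read against 0.58, and the values are given where its median turned its sign. Of the falls named below, those of Cdkn1a, Mga, Irf4, Tnf, Dusp4, Ciita, H2-Ob, Cxcr5, Unc93b1, Mapkapk3, Srebf2, Hbb-bs and Ifi35 kept their sign but missed the threshold under median scaling. Of the 9483 genes, 1517 had at least 1 time at which no array detected them, and the median of all genes is 0 when these are taken at their bound. Where a group did not detect a gene on any array, the text gives the smallest fold that the detection limit allows, as at least.

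The rises were led by cell cycle genes. Pclaf, the PCNA-associated factor of replication forks, read 6.46, 6.56, 6.33, 6.74 and 6.60 on the 6 h arrays in log2 normalized intensity. On the 24 h arrays it read 11.22, 11.19, 11.45, 11.40 and 11.35. The groups lay far apart, with the 6 h arrays near background, where 1 of 5 detected the gene. The difference was 27.6-fold (log2 4.79, SE 0.09, adjusted p 1.3e-21), and 4.69 with the covariate.

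Cdc6, which loads the replicative helicase onto origins, read 6.36, 6.67, 6.30, 6.38 and 6.64 at 6 h and was detected on 1 of these arrays. On the later arrays it read 10.95, 10.83, 10.81, 10.87 and 10.81. No array of either time came near the other group, and the difference was 20.9-fold (log2 4.38, SE 0.10, adjusted p 1.8e-20). Close behind came Clspn, the adaptor of the replication checkpoint kinase (19.2-fold), and Mcm10, an origin-firing factor (18.7-fold). They were detected on 1 and 2 of the 6 h arrays and on all 24 h arrays.

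Of 40 measured DNA replication genes 39 rose and 1 fell, in both fits, with a median log2 difference of 1.77 (1.73 with genes at their bound). The 24 h arrays lay wholly above the 6 h arrays in 38 of the 40, and 35 rose at least 2-fold in both fits. Uhrf1, which carries DNA methylation across replication, rose 13.2-fold, Lig1, the ligase of Okazaki fragments, 11.4-fold, and Gins2, a helicase subunit, 7.63-fold. The exception was Pold2, a subunit of DNA polymerase delta, which fell by 1.02 (log2, adjusted p 2.8e-09). Pold2 lay at 0.24 under median scaling.

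The E2F element is the sequence through which replication genes are known to be switched on in S phase, so the stretches that hold it in 4 of these promoters are shown, from RefSeq (GRCm38.p6). A match to TTTGGCGC, TTTCCCGC, TTTCGCGC or TTTGCCGC on either strand is in capitals, and each stretch ends before an annotated start. Uhrf1 has 2 annotated starts, and its stretch lies before the downstream one, while the window of the upstream start held no match. In Mcm5 and in the first run of Mcm6 a pair of matches overlaps.
Cdc6, chr11:98907988-98908045, plus strand: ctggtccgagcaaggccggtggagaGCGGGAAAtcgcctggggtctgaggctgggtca
Mcm5, chr8:75109331-75109392, plus strand: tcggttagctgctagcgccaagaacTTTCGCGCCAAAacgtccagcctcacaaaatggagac
Mcm6, chr1:128359720-128359840, minus strand: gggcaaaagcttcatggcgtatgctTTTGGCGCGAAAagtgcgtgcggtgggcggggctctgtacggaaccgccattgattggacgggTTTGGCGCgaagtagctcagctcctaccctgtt
Uhrf1, chr17:56304103-56304160, plus strand: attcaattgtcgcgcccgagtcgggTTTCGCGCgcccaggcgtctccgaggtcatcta
Mcm5 and Mcm6, subunits of the MCM helicase, rose by 2.13 and 2.50 on the log2 scale (adjusted p 6.8e-14 and 5.8e-13). A match was present in 13 of the 31 measured replication genes with a promoter window (41.9%), against 4.93% of 7766 tested genes and 2.6% of all 27025 genes with a promoter window around the start. The windows of Mcm10 and Rrm2 held no such letters.

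Mitosis and spindle genes rose together with the replication genes. Of 41 measured, 40 were higher at 24 h and 1 lower, and 39 were higher with the covariate. The median was 2.56 (2.44 with genes at their bound), and the 24 h arrays lay wholly above the 6 h arrays in 37. Prc1, which bundles microtubules of the central spindle, read 7.21, 7.39, 7.30, 7.44 and 7.37 at 6 h. Its 24 h values were 11.26, 11.12, 11.26, 11.20 and 11.11, a 14.4-fold difference with no overlap (adjusted p 1.8e-20).

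Pbk, a mitotic kinase, rose 11.6-fold, Bub1b, of the spindle checkpoint, 13.4-fold, and Nusap1, a spindle microtubule protein, 16.4-fold. Aurkb, the kinase of the chromosomal passenger complex, rose 7.8-fold. Cenpa, the centromeric histone, rose 8.77-fold from 6 to 24 h, but its WT mean at 0 h (12.51) was above that at 24 h (11.69). The probe of Kif23, a kinesin of the central spindle, rose 16.5-fold. Its other 3 probes differed among themselves, 2.15, 0.60 and -0.54 on the log2 scale, so the probes of Kif23 disagree. Kif20a, another spindle kinesin, was not detected on any 24 h array and read at least 1.46-fold lower there, but the groups overlapped, and with the covariate its difference was -0.11 (adjusted p 0.601).

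Promoter stretches of 4 mitosis genes are shown because the cell cycle homology region was present in most genes of this list. The letters TTTGAA on either strand are in capitals.
Prc1, chr7:80294421-80294475, plus strand: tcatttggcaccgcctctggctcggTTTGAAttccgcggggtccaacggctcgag
Kif11, chr19:37376338-37376381, plus strand: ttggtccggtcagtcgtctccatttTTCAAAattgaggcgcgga
Ube2c, chr2:164769875-164769928, plus strand: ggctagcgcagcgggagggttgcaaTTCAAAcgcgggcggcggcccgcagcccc
Top2a, chr11:99024190-99024393, minus strand: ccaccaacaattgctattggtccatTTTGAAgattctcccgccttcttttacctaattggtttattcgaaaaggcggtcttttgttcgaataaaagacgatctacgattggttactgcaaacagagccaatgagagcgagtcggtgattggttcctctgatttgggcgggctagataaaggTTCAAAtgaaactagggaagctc
The capitals nearest the start begin 30 bases before it in Prc1, 19 in Kif11, 29 in Ube2c and 23 in Top2a. The same letters of Prc1 begin 5 bases before its other annotated start. Kif11, Ube2c and Top2a, like Mcm5 and Mcm6 above, were picked for a match before the start, after their values were seen. Kif11, the motor that separates spindle poles, rose at least 2.91-fold and Ube2c, of the anaphase-promoting complex, at least 2.49-fold, both detected on no 6 h array. Top2a, the topoisomerase that untangles sister chromosomes, rose by 3.15 (log2, adjusted p 8.3e-15). The letters were present in 28 of 32 measured mitosis genes with a window (87.5%), against 14.4% of the tested genes and 20.2% of all genes. Nusap1 had none in its window.

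Replication-dependent histone genes were among the largest rises. H2ac12 read 9.11, 9.36, 9.47, 8.97 and 8.79 at 6 h. By 24 h it read 13.61, 13.37, 13.32, 13.50 and 13.50, a 20-fold difference without overlap (adjusted p 1.2e-19). H3c7, H2ac11 and H3c6 rose 16.4-, 15.2- and 14.8-fold. Histone genes of a cluster are near copies of each other, so a probe may read several, and the labelling started from oligo(dT), which reads their mostly unpolyadenylated transcripts poorly.

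**Figure D2:**
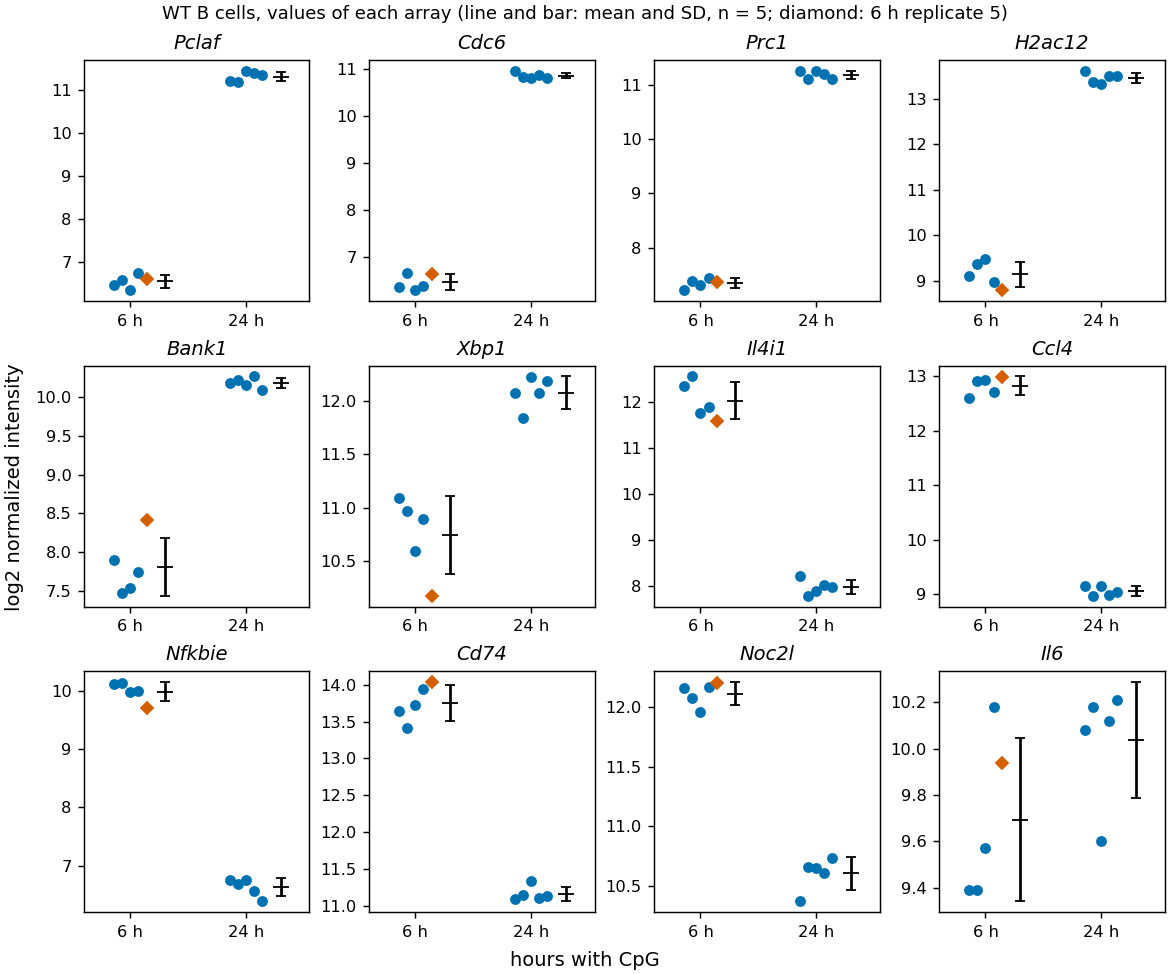
Log2 normalized intensity of 12 genes on each WT array at 6 and 24 h with CpG, with the mean and SD (n = 5) beside the points and 6 h replicate 5 drawn as a diamond. The groups overlap for Il6 and for none of the other 11 genes, and Bank1 reads 8.41 on the diamond against at most 7.90 on the other 6 h arrays.

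Genes that supply and steer replication rose in part. Of 25 nucleotide synthesis genes 16 rose and 7 fell (median 0.34). Rrm2 and Rrm1, the subunits of ribonucleotide reductase, rose 9.47- and 4.91-fold, and Tk1, Tyms and Dut, which make thymidine nucleotides, 5.57-, 4.29- and 3.98-fold. Cad, which starts pyrimidine synthesis, fell by 2.09 on the log2 scale (adjusted p 7.3e-14), and Adsl of purine synthesis fell by 1.01, though Adsl lay at 0.21 under median scaling. Of 26 cyclin, CDK inhibitor and E2F genes 14 rose (53.8%) and 5 fell (19.2%), against 34.4% and 29.1% over all genes. The cyclins of S phase entry, Ccne2 and Ccne1, were at least 3.93- and 2.24-fold higher, their partner kinase Cdk2 3.61-fold, and E2f1 and E2f3 3.77- and 3.85-fold. Cdkn1a, the CDK inhibitor p21, fell by 1.44 (adjusted p 1.1e-09).

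Among 19 recombination and repair genes 18 rose and 0 fell (median 0.94), led by the recombination helicase genes Rad54b (8.99-fold) and Rad54l (4.26-fold). Msh6, of mismatch repair, rose 3.84-fold, the helicase gene Blm 3.16-fold, and Fancd2, of crosslink repair, 2.58-fold. Of 18 targets of p53 none rose and 15 fell (median -0.53; 13 fell and 1 rose with the covariate). The median of the p53 list was 0.08 under median scaling, which lies 0.50 below the median of all genes there. Phlda3, an inhibitor of Akt, fell by 2.05, and Bbc3, the death factor Puma, by 1.97 (adjusted p 7.5e-16 and 1.2e-11).

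Myc and the ribosome-building genes were lower at 24 h. Myc read 10.18, 9.32, 9.10, 9.79 and 8.83 at 6 h. The 24 h readings were 6.68, 7.38, 7.07, 7.02 and 7.13, lower on every array, with a wider spread at 6 h (SD 0.54) than at 24 h (SD 0.25). The difference was -2.39 (SE 0.20, adjusted p 2.6e-10), -1.91 with the covariate. Mxd4, a Max partner that opposes Myc at its target sites, rose 6.04-fold on its brightest probe. The other probes of Mxd4 read 0.68 and 0.20 on the log2 scale. Its WT mean was 10.51 at 0 h, 6.27 at 6 h and 8.86 at 24 h, so the rise did not reach the 0 h level. Max rose by 0.49 (adjusted p 0.0118) and Mga, another Max partner, fell by 0.51.

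Of 48 ribosome biogenesis genes 29 fell and 7 rose (median -0.56), and with the covariate 26 fell and 1 rose. Noc2l, a ribosome assembly factor, read 12.16, 12.08, 11.96, 12.17 and 12.21 at 6 h. At 24 h it read 10.37, 10.66, 10.65, 10.61 and 10.73, which was lower on every array by a 2.85-fold mean difference (adjusted p 4.7e-13). Wdr74, Rrp9, Grwd1 and Ppan, factors of pre-ribosome processing, fell by 1.70, 1.42, 1.37 and 1.23. Rrn3, of RNA polymerase I initiation, and Pno1 rose by 0.49 and 0.46, with overlapping groups, and neither passed with the covariate (adjusted p 0.255 and 0.459). This direction depended on the scaling: the list's median was 0.58 under median scaling, equal to that of all genes, and Noc2l, Wdr74, Rrp9, Grwd1 and Ppan no longer passed there.

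Genes of the early Toll-like receptor and NF-kB response were mostly lower at 24 h. Of its 31 genes 23 fell and 3 rose (median -0.93, -1.12 with the covariate), and 15 fell at least 2-fold in both fits. The median was 0.12 under median scaling, 0.46 below that of all genes. Nfkbie, which encodes the inhibitor IkB epsilon, read 10.11, 10.13, 9.98, 10.00 and 9.71 at 6 h. Its 24 h values were 6.76, 6.69, 6.76, 6.56 and 6.39, 10.2-fold lower and near background, with 4 of 5 arrays detecting it (adjusted p 4.4e-18).

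Traf1, an adaptor of TNF receptors, fell by 3.15, Ebi3, a subunit of interleukins 27 and 35, by 2.29, and Icam1, the adhesion ligand of LFA-1, by 1.84. Irf4, a factor with roles in both activation and plasma cell formation, read 11.33, 10.99, 11.10, 11.47 and 11.64 at 6 h. By 24 h it read 9.48, 9.27, 9.27, 9.22 and 9.15, lower on all arrays (difference -2.03, adjusted p 3.4e-13). Cd69, an early activation marker that holds cells in tissue, went the other way and rose 2.28-fold on its brightest probe. Its other probe read 0.07 on the log2 scale. The WT mean of Cd69 was 13.1 at 0 h, 9.9 at 6 h and 11.1 at 24 h, so the rise did not reach the 0 h level. Rel, an NF-kB subunit, read 0.21 higher (adjusted p 0.156) and passed without 6 h replicate 5 (0.35), with array weights (0.29) and under median scaling (0.805).
Nfkbie, chr17:45555570-45555628, plus strand: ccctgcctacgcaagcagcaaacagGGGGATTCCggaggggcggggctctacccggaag
Ebi3, chr17:55952554-55952612, plus strand: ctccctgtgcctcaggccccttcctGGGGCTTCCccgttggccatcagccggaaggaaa
The stretches of Nfkbie and Ebi3 are shown as 2 falls of this list with a match before the start, where GGGNNTTCC on either strand is in capitals. A match was present in 8 of 25 genes of the list with a window (32.0%), against 8.81% of tested genes. The windows of Traf1 and Icam1 held none.

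Cytokine and chemokine genes mostly fell as well, 16 of 22, with 2 rises (median -0.73; -0.56 with genes at their bound). Ccl4, a chemokine that draws T cells, read 12.60, 12.91, 12.93, 12.70 and 12.99 at 6 h. The 24 h readings were 9.16, 8.98, 9.15, 8.99 and 9.04, a 13.6-fold difference without overlap (adjusted p 1.2e-19). Il1b read 9.37, 9.64, 9.78, 9.58 and 9.88 at 6 h and was not detected on any 24 h array, at least 9.86-fold lower.

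Lta and Tnf, related cytokines of the TNF family, fell by 2.47 and 1.41. The rises were Il10, the anti-inflammatory cytokine of regulatory B cells (1.96-fold), and Il16 (4.38-fold). Il6, the cytokine named in the study's title, read 9.39, 9.39, 9.57, 10.18 and 9.94 at 6 h. On the later arrays it read 10.08, 10.18, 9.60, 10.12 and 10.21, so that the groups overlapped. Its difference of 0.34 (SE 0.16) had an adjusted p of 0.0663 and 0.525 with the covariate. It passed without 6 h replicate 4, 6 h replicate 5 or 24 h replicate 3 (0.46, 0.40 and 0.45), and under median scaling (1.56, adjusted p 0.00104).

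The largest falls reached beyond cytokines. Il4i1, a secreted amino acid oxidase, read 12.36, 12.56, 11.77, 11.89 and 11.60 at 6 h. At 24 h it read 8.23, 7.80, 7.90, 8.04 and 7.98, 16.5-fold lower (adjusted p 3.4e-17) with no overlap. Kdm6b, a histone H3K27 demethylase, fell by 3.64, Mreg by 3.71, Kctd14 by 3.74, the semaphorin receptor gene Plxnd1 10.9-fold, Actn1, an actin crosslinker, by 3.30, and Ifnlr1, a receptor chain for interferon lambda, by 3.26. In Il4i1 the WT mean was back at 11.45 at 48 h, while Mreg and Kctd14 stayed low (6.84 and 6.37).

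Immediate early genes fell in 13 of 24 and rose in 3 (median -0.30). Jun, a subunit of AP-1, read 10.10, 9.76, 10.09, 9.98 and 9.02 at 6 h. By 24 h it read 6.78, 7.03, 7.09, 6.99 and 7.03, lower on all arrays (difference -2.81, adjusted p 6.9e-14), and its lowest 6 h value came from the bright array. Junb fell by 2.21, and Egr3 and Egr2, factors induced by receptor signals, by 1.62 and 1.24. Their phosphatase counterparts diverged on their brightest probes. Dusp4 fell by 1.46 and Dusp6, which dephosphorylates ERK, rose 6.63-fold from a level detected on 1 of 5 6 h arrays. The other probes of Dusp4 read -0.19, -0.11 and -0.01, so its fall rests on 1 probe, and the other probe of Dusp6 read 1.43. Zfp36, which destabilises cytokine mRNA, rose by 0.43 (adjusted p 0.00032).

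Antigen presentation genes were at a low point at 24 h. In the MHC class II list 9 of 14 fell and 1 rose (median -0.82, the same with the covariate). Cd74, the invariant chain, read 13.65, 13.42, 13.72, 13.95 and 14.04 at 6 h. The 24 h readings were 11.09, 11.14, 11.33, 11.10 and 11.13, 6.06-fold lower (adjusted p 5.9e-15). H2-Eb1 and H2-Ab1, chains of the class II molecules themselves, both fell by 2.05, Ciita, their transactivator, by 1.42, and H2-Ob, a peptide-loading modulator, by 1.51. H2-Oa, its partner chain, rose by 0.30 (adjusted p 0.0037), while a further probe of H2-Oa read -0.12. The WT means at 0 and 48 h were higher than at 24 h for Cd74 (14.57 and 14.40), H2-Eb1 (14.27 and 13.37) and H2-Ab1 (14.57 and 13.38).

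In the MHC class I list 9 of 16 fell and 4 rose (median -0.70). H2-D1, a classical class I chain, fell by 1.89, Tap1, the peptide transporter, by 1.52, and B2m, the common light chain, by 0.93, but B2m lay at 0.25 under median scaling. H2-Q7 was 9.46-fold lower, and H2-T23 fell by 2.49 on its brightest probe, while its other 2 probes read -2.29 and 0.12, so they disagree. Class I genes are near copies of each other, so probes for H2-D1, H2-Q7 and H2-T23 may read more than 1 of them. Pdia3 and Calr, chaperones of the loading complex, were 2.14- and 2.33-fold higher, and Calr missed the threshold with the covariate (adjusted p 0.114). The medians of the class II and class I lists were 0.30 and 0.35 under median scaling, 0.28 and 0.23 below that of all genes.

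Most costimulation genes were also lower. Of 18 costimulation and activation genes 12 fell and 2 rose (median -0.76; 0.02 under median scaling, 0.56 below that of all genes). Cd86, the ligand of CD28, fell by 1.82, Slamf7 by 2.06, Il2ra, a chain of the interleukin 2 receptor, by 1.80, and Pdcd1lg2, a ligand of PD-1, by 1.38. Cd48 rose by 0.58 (adjusted p 0.00114). Ccr7, which guides B cells towards T cell zones, read 11.87, 11.74, 11.74, 11.70 and 11.68 at 6 h. On the later arrays it read 8.60, 9.02, 8.86, 8.77 and 8.66, 7.81-fold lower (adjusted p 6.7e-18) on all arrays. Of the 20 homing receptor and Rgs genes 6 fell (30%) and 4 rose (20%), against 29.1% and 34.4% over all genes. Their median was -0.01, and 0.17 under median scaling, below that of all genes. Ccr6 and Cxcr5, the latter the receptor that leads to follicles, fell by 2.66 and 1.83, while Cd44, an adhesion receptor, rose by 0.93 and Rgs10, a brake on receptor signalling, by 1.38.

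Genes of B cell identity moved in both directions. Of 35 mature B cell surface and signalling genes 18 rose (51.4%) and 11 fell (31.4%), against 34.4% and 29.1% over all genes. Their median was 0.40, and with the covariate 13 rose and 10 fell. Bank1, the scaffold protein of receptor signalling that the study deleted in its other genotype, read 7.90, 7.47, 7.53, 7.74 and 8.41 at 6 h. Its 24 h values were 10.19, 10.23, 10.16, 10.27 and 10.09, above all 6 h arrays. It was 5.20-fold higher (log2 2.38, SE 0.14, adjusted p 3.9e-13), 2.10 with the covariate, and its 6 h mean (7.81) was far under that at 0 h (11.38) and 48 h (11.28).

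Klhl6, an adaptor of a ubiquitin ligase needed for germinal centre B cells, read 9.01, 8.99, 8.58, 8.69 and 8.55 at 6 h. At 24 h it read 12.73, 12.60, 12.84, 12.64 and 13.00, a 16-fold rise with no overlap. Pik3cg, a catalytic subunit of phosphoinositide 3-kinase, rose 18.3-fold from a level detected on 1 of 5 6 h arrays. Both genes had been higher at 0 h than at 6 h, with WT means of 11.6 against 8.8 for Klhl6 and 9.9 against 6.5 for Pik3cg. Btk, the kinase downstream of the B cell receptor, rose 3.13-fold, Dapp1, an adaptor that binds lipid products of phosphoinositide 3-kinase, 2.64-fold, and Cd24a 4.14-fold. Fcer2a, the low-affinity IgE receptor CD23, read 9.88, 9.30, 9.90, 9.96 and 9.62 at 6 h and was detected on no 24 h array, at least 10.4-fold lower. Cd72, an inhibitory coreceptor, fell by 2.73 (adjusted p 1.2e-18) and Blk, a Src family kinase, by 1.12, though Blk lay at 0.01 under median scaling. Ms4a1, the CD20 antigen, read 0.12 higher (adjusted p 0.322).

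Of 29 B cell and plasma cell transcription factors 12 rose (41.4%) and 8 fell (27.6%), not far from the 34.4% and 29.1% over all genes. The list's median was 0.14, and with the covariate 11 rose and 9 fell (median -0.03). Pou2af1, a coactivator of immunoglobulin genes, read 9.47, 9.56, 9.56, 9.42 and 9.69 at 6 h. The 24 h readings were 12.15, 11.99, 12.26, 12.12 and 12.10, 6.00-fold higher (adjusted p 2.3e-18). Xbp1, which enlarges the secretory pathway, read 11.09, 10.97, 10.60, 10.90 and 10.18 at 6 h. On the later arrays it read 12.07, 11.84, 12.22, 12.07 and 12.19, above every 6 h array, of which the bright one was lowest. It rose by 1.33, and by 1.67 with the covariate (adjusted p 5.6e-09 and 2.3e-10). Mef2c, which supports B cell proliferation, rose 3.63-fold and Mybl2, a cell cycle factor of the MMB complex, 2.63-fold. Foxo1, a factor of resting B cells, fell by 0.97 and lay at 0.17 under median scaling.

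Genes of ER folding and secretion rose in 28 of 44 and fell in 7 (median 0.53; 26 and 6 with the covariate). Tram1, of the protein-conducting channel, rose 4.08-fold, Sec11c, a signal peptidase subunit, 4.23-fold, Ero1b, an oxidase of disulfide formation, 3.50-fold, and Dnajc3, a cochaperone, 2.09-fold. Dnajb9, another ER cochaperone, and Txndc5, a disulfide isomerase, fell by 0.92 and 0.83, and lay at 0.33 and 0.39 under median scaling.

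**Figure D3:**
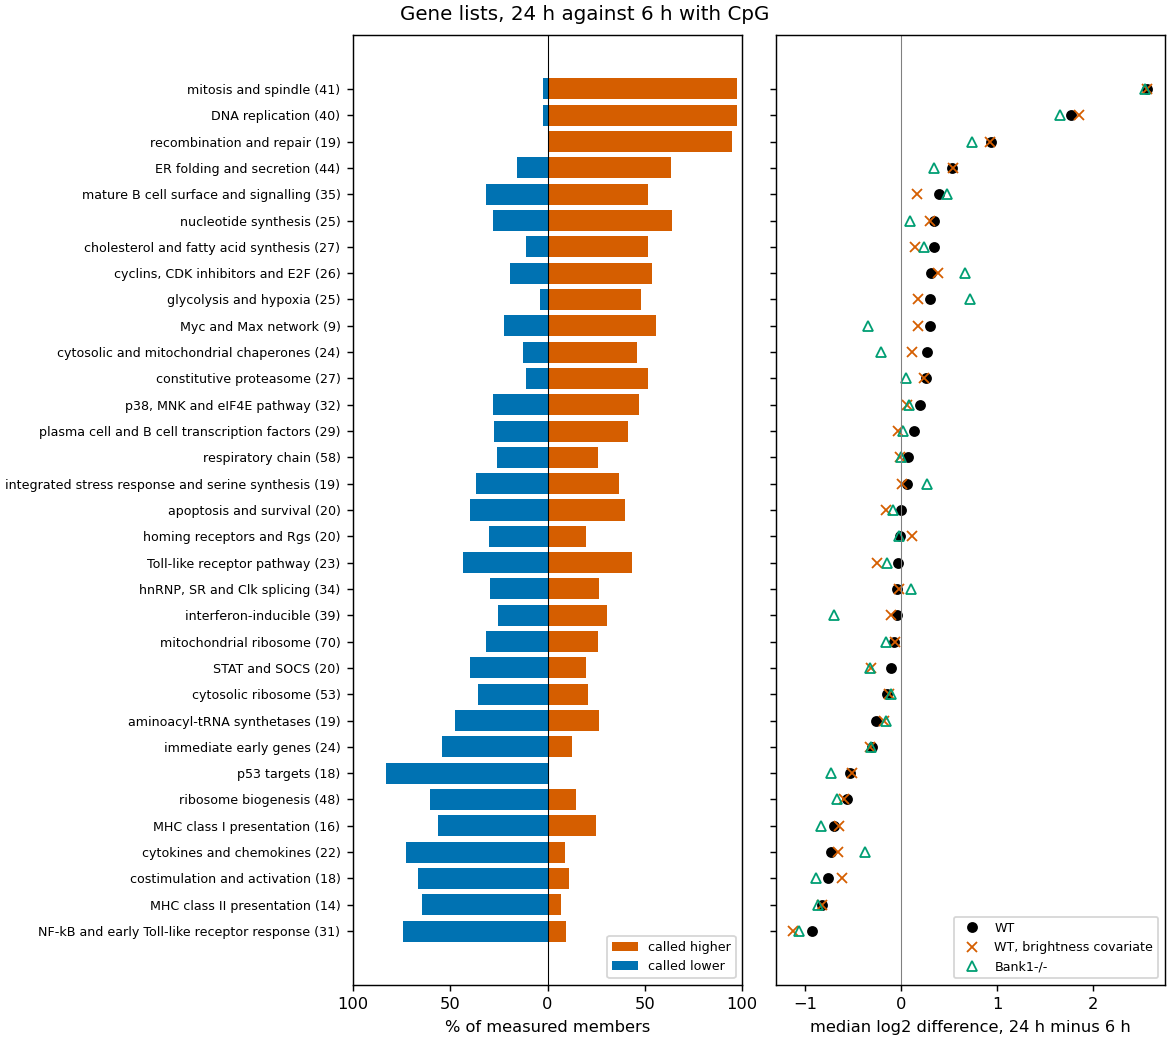
The left panel gives for 33 gene lists the percentage of measured members (number in brackets) called higher or lower at 24 h than at 6 h in WT cells, and the right panel the median log2 difference in WT, in WT with the brightness covariate and in Bank1-/- cells. Mitosis and DNA replication genes stand highest at 2.56 and 1.77, and the NF-kB list lowest at -0.93.

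Signalling components were mixed. Of 23 Toll-like receptor pathway genes 10 rose and 10 fell (43.5% each), against 34.4% and 29.1% over all genes. Their median was -0.03, and 0.64 under median scaling. Irak3, which restrains receptor signalling, rose 10.4-fold and Tlr2 3.15-fold, and Unc93b1, which carries Toll-like receptor 9 to endosomes, fell by 1.44. Of 20 STAT and SOCS genes 4 rose (20%) and 8 fell (40%), with a median of -0.10. Under median scaling the median was 0.21, below that of all genes. Stat5a fell by 2.65 and Cish, an inhibitor induced by STAT5, was at least 2.28-fold lower, while Socs3, an inhibitor of STAT3 signals, rose 2.76-fold. In the list for p38, MNK and eIF4E signalling, 15 of 32 genes rose (46.9%) and 9 fell (28.1%), with a median of 0.20. The shares over all genes were 34.4% and 29.1%, and with the covariate 11 of the list rose and 9 fell. Eif4ebp1, a repressor of the cap-binding protein eIF4E, rose 2.18-fold, and Mapkapk3, a kinase downstream of p38, fell by 1.70. Among 20 apoptosis and survival genes 8 rose and 8 fell (40% each), with a median of 0, and 0.64 under median scaling. On their brightest probes Bcl2l1, the survival factor Bcl-xL, fell by 1.62, Bcl2l2 rose by 1.24, and the initiator caspase gene Casp9 rose by 1.63. The other probes of Bcl2l1 read -0.63 and -0.24, those of Bcl2l2 0.99, 0.25 and 0.09, and that of Casp9 0.44.

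Metabolic genes rose in part. Of 25 glycolysis and hypoxia genes 12 rose and 1 fell (median 0.30). Slc2a1, the glucose transporter, and Gapdh rose 2.74- and 2.06-fold, and Ankrd37 and Ndrg1, induced by hypoxia, 4.07- and 2.78-fold from levels detected on 1 of 5 6 h arrays. Adm fell by 1.97. Of 27 cholesterol and fatty acid synthesis genes 14 rose and 3 fell (median 0.34; 8 and 2 with the covariate). Scd2 and Elovl6, which desaturate and lengthen fatty acids, rose 3.06- and 2.77-fold, and Srebf2, the master factor of cholesterol synthesis, fell by 1.43. The globin transcripts of red cells fell in the same comparison, while Slc4a1 and Sptb, detected on no array, differed by 0.01 and 0.16 without passing. Hba-a1, alpha globin, read 8.70, 8.55, 9.01, 8.28 and 8.33 at 6 h and was detected on no 24 h array, at least 4.67-fold lower, and Hbb-bs, beta globin, fell by 1.76. The part of red cell RNA in the falls above was not tested.

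The 24 h state was set beside the other WT times by group means, without a test. Of the 907 genes higher at 24 h, 716 (78.9%) had a 48 h mean on the 24 h side of the midpoint between 6 and 24 h, and 433 (47.7%) had a 0 h mean there. Of the 615 lower genes, 487 (79.2%) lay on the 24 h side at 48 h and 403 (65.5%) at 0 h. The midpoint comes from the same arrays that chose these genes. The replication list had median levels of 7.96, 8.14, 10.31 and 9.14 at 0, 6, 24 and 48 h, and the mitosis list 6.61, 6.62, 9.21 and 9.18. The ribosome biogenesis list stood at 9.10, 11.07, 10.06 and 8.36, and the MHC class II list at 12.56, 9.39, 8.99 and 10.92.

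**Figure D4:**
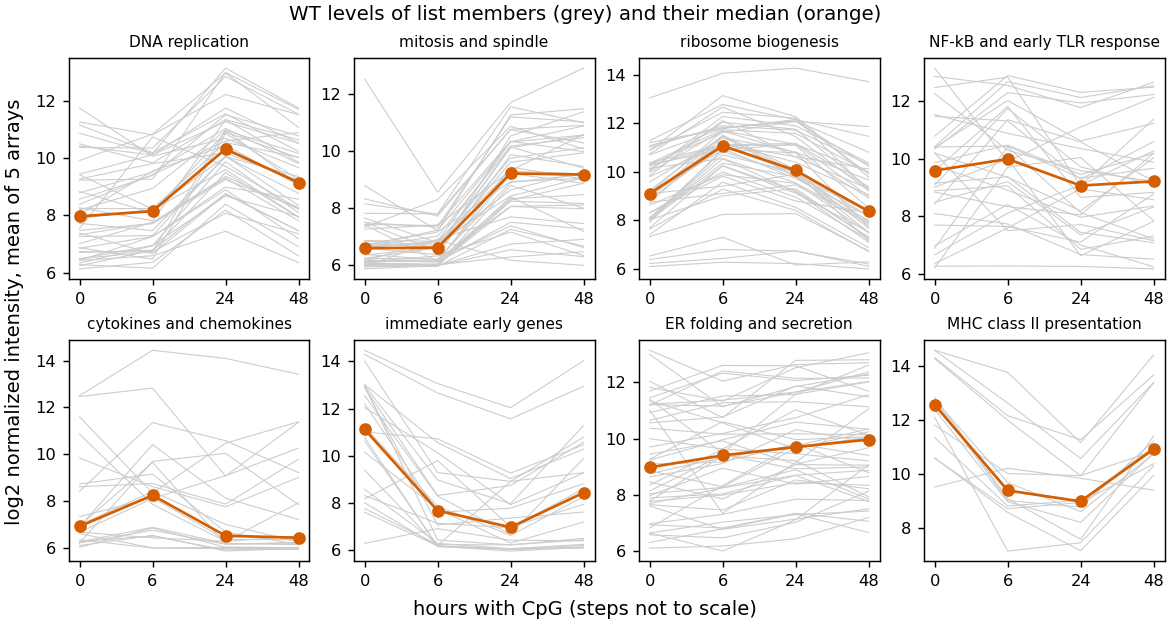
WT group means (5 arrays each) in log2 normalized intensity of the members of 8 gene lists at 0, 6, 24 and 48 h, in grey, with their median in orange. The medians of the replication and mitosis lists are highest at 24 h, at 10.31 and 9.21, and that of the ribosome biogenesis list at 6 h, at 11.07.

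Bank1-/- cells were compared between the same times on other arrays. There 4977 of 9483 genes (52.5%) differed between 24 and 6 h, 2308 higher (24.3%) and 2669 lower (28.1%), and 3500 genes were called in the same direction in both genotypes, 58.1% of the WT calls and 70.3% of the Bank1-/- calls, with 199 in opposite directions. Of the 907 strong rises 794 were called higher in Bank1-/- cells (87.5%), and of the 615 strong falls 545 lower (88.6%). Replication and mitosis genes rose in 39 of 40 and 39 of 41 there.

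A test of the difference between the genotypes' changes called 2192 genes (23.1%), the 24 h minus 6 h difference being above that of Bank1-/- cells in 1430 (15.1%) and below it in 762 (8.04%). With brightness as covariate it called 64 (0.675%), 47 above (0.496%) and 17 below (0.179%). Without the covariate the count was 3416 without WT 6 h replicate 5 and 1411 without Bank1-/- 24 h replicate 2. In WT cells 12 of 39 interferon-inducible genes rose and 10 fell (median -0.04; 0.40 under median scaling, below that of all genes), and in Bank1-/- cells 2 rose and 25 fell (median -0.70). The change differed between genotypes in 24 of the 39, and in 13 with the covariate. The letters GAAANNGAA of the interferon response element were present in the windows of 19 of 32 genes of the list (59.4%), against 8.51% of tested genes. Ifi47, an interferon-induced GTPase, read 8.18, 8.83, 8.64, 8.38 and 8.46 at 6 h and 9.34, 9.15, 9.30, 9.23 and 9.33 at 24 h in WT cells. It rose in WT (0.78, adjusted p 2.8e-06) and fell in Bank1-/- cells (-0.82, adjusted p 1.6e-06), where the 6 h mean was 10.08 and the 24 h mean 9.27.

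Within the WT list Samhd1, a nucleotide hydrolase that restricts viruses, rose 3.02-fold, Irgm2 1.88-fold and Pml 2.22-fold, the first and last on their brightest probes. The other probes of Pml read 0.97, 0.14, 0.09 and 0.04 on the log2 scale, and those of Samhd1 1.76 and 0.15. Ifitm3 and Ifi35 fell by 2.31 and 1.54. Bank1 itself rose by 0.95 in Bank1-/- cells, to a mean of 7.71, and the difference of changes was 1.43 (adjusted p 0.00068; 0.0702 with the covariate). Where its probe lies relative to the deleted part is not given in the sources used here. Erdr1 read 13.29, 13.19, 13.35, 13.37 and 13.63 at 6 h and 11.17, 11.35, 11.44, 11.26 and 11.25 at 24 h in WT cells, a fall of 4.21-fold, while Bank1-/- means were 12.23 and 12.14.

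**Figure D5:**
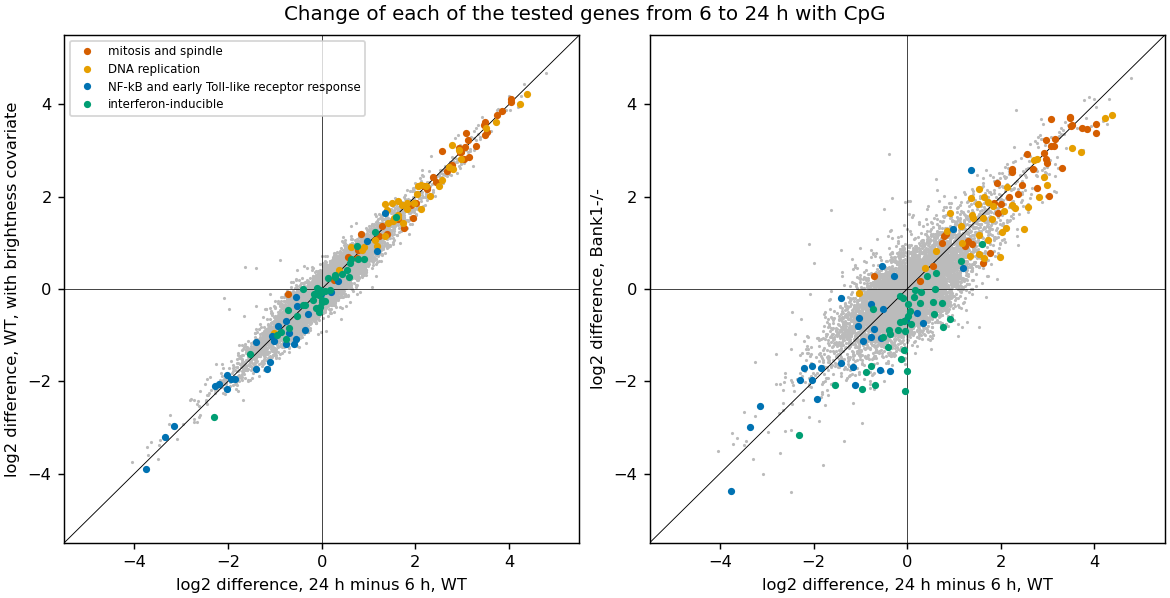
Log2 difference of each of 9483 genes between 24 and 6 h in WT cells (horizontal) against the same with brightness as covariate (left) and in Bank1-/- cells (right), with members of 4 lists coloured and the line of equal values drawn. Mitosis and replication genes lie near the line on both sides, and interferon-inducible genes lie mostly below it on the right, with medians of -0.04 in WT (0.40 under median scaling) and -0.70 in Bank1-/- cells.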

How the data were processed

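Values were taken from the probe intensity table that the authors deposited, described as not normalized per the file headers. The log2 intensity table the authors also deposited was used as an alternative; its processing is not given in the sources used here. Another 8 columns, of a later time, match no sample and were not used. Intensity was background-corrected (normexp, offset 50), quantile normalized over 40 arrays and put on the log2 scale with limma 3.58.1 in R 4.3.3. The offset understates changes of dim genes. Probes were named through the platform annotation of 2016 and Entrez identifiers (34885 of 45281 with 1 symbol, 18 with several, 10378 with none). A probe was detected above the 99th percentile of 1287 olfactory receptor probes and stayed in when 5 or more of the 40 arrays detected it; the brightest of 15530 named kept probes per gene represented 9483 genes. The fit held the 20 WT arrays with 1 coefficient per time (16 residual degrees of freedom); genotypes were compared in the 20 arrays at 6 and 24 h. Tests were two-sided and adjusted by Benjamini-Hochberg over all genes; 5 arrays per group limit the precision. A bound is the detected mean over, per undetected array, the higher of the threshold and the probe's own value. Members and gene lists were chosen with earlier results of these data known, and lists were not tested. Named were Bank1, Il6, the 12 largest rises and falls called in both fits, up to 5 members of a list with the smallest p and 2 of the other direction, and the 6 smallest p of the genotype comparison, of which the text prints most; Kif11, Top2a, Ube2c, Mcm5 and Mcm6 were added after their values were seen. The fit was tested on simulated data. Same-numbered arrays were not treated as pairs in the main fit. Deviations of same-numbered 6 and 24 h arrays correlated between -0.23 and 0.089, which cannot settle whether they shared a mouse. Promoter windows and motif counts came from RefSeq (GRCm38.p6) with pandas; figures used matplotlib.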

Additional observations from a re-analysis of the deposited data

Results flagged for a closer look

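Among 50 groups of 5 arrays checked, 3 held an array that stood apart by Dixon's criterion (0.71 for 5 arrays), near the 1 in 20 that chance gives. They were WT 6 h replicate 5 in mean raw signal (455.1, others 145.7 to 231.9), WT 24 h replicate 3 in Il6 (9.60, others 10.08 to 10.21) and the same array in Cd74 (11.33, others 11.09 to 11.14).

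The change from 6 to 24 h differed between WT and Bank1-/- cells in 2192 genes by the interaction test of limma, and in 64 with brightness as covariate. The WT change minus the Bank1-/- change was 1.43 for Bank1, 1.08 for Il6 (adjusted p 0.00487; 0.0901 with the covariate), 1.95 for Apol7c, -1.97 for Erdr1, 1.94 for Phf11a, 1.59 for Ifi47, 1.27 for Rsad2 and 1.41 for Ifi27. Rsad2 was detected on no WT array at either time and Apol7c on none at 24 h, so the sizes for these genes are not exact. Mean raw signal moved the opposite way in the genotypes, and its part in these differences was not tested beyond the covariate.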

How the results depend on the processing

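Without the covariate the count of genes differing between 24 and 6 h in WT cells stayed within 1.5 times of 6022. It ran from 5319 (replicate number as a block in the 10 arrays, 5563 without the block) to 6470 (no filter on dim probes). The 6470 were called among 19057 genes tested, against 9483 in the main fit, so their share was lower. With 1 array left out the count ran from 5712 to 6428. With the covariate it was 5037, 4742 in the 10 arrays alone and 4985 on the authors' processed values. With the covariate and 1 array left out it ran from 3794 (without WT 6 h replicate 5) to 5111. The count of 3794 lay outside 1.5 times of 6022. The genotype comparison moved most, from 2192 to 64 with the covariate, and from 1411 (without Bank1-/- 24 h replicate 2) to 3416 (without WT 6 h replicate 5). Over 208 genes picked by the naming rule or added, 4277 of 4361 comparisons kept direction and side of the threshold, and 155 genes did so throughout. Median scaling turned the sign of Pold2 (0.24), E2f5 (0.082), Adsl (0.21), Ei24 (0.26), Dnajb9 (0.33), Txndc5 (0.39), Foxo1 (0.17), B2m (0.25), Tab1 (0.53), Dusp16 (0.15), Fdps (0.86), Blk (0.008), Vars (0.33) and Ly6d (0.73), and Ly6d also read 0.11 in the 10 arrays with the covariate; the cause was not tested. That scaling moved the median of all genes from 0.04 to 0.58. Relative to it 198 of the 201 named genes that were called kept their sign. Most of these were picked for a large change or a small p in the same data, so they do not stand for all genes. Over all genes 3760 of the 6022 called passed again under median scaling, in either direction. Of 113 named genes with several probes, 6 had a probe of the opposite sign. Others had a further probe of the same sign near 0, such as Dusp4 (-0.01), Bbc3 (-0.06) and Cd69 (0.07). With the replicate number as a block 5319 genes were called in WT cells and 1965 in the genotype comparison; the labels share only a number, and of the genes followed only Ly6d lost its call under that block. Dim genes near background limit the precision of their folds, and their changes are understated.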

Other observations

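Stress genes moved in both directions between 6 and 24 h in WT cells. In the integrated stress response and serine synthesis list 7 of 19 rose and 7 fell (median 0.06), near the shares over all genes. Asns, asparagine synthetase, rose 2.63-fold, Atf5 2.53-fold and Psat1, of serine synthesis, 2.64-fold. Nupr1, a stress-induced nuclear protein, was at least 2.88-fold higher, and Ppp1r15a, which reverses the translational arrest, fell by 1.95 on the log2 scale. Of 24 chaperone genes 11 rose and 3 fell (median 0.27), Hsp90aa1 2.08-fold. Of 27 proteasome genes 14 rose and 3 fell (median 0.26), Psmd14, the deubiquitinase of the lid, 2.43-fold.

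With quantile normalization, large housekeeping lists had medians close to that of all genes. Of 58 respiratory chain genes 15 rose and 15 fell (25.9% each), against 34.4% and 29.1% over all genes, with a median of 0.07. Sdhd, of complex II, rose 2.71-fold and Uqcrq, of complex III, fell by 1.30. Of 70 mitochondrial ribosome genes 18 rose and 22 fell (median -0.07), of 53 cytosolic ribosome genes 11 and 19 (median -0.14), and of 34 splicing genes 9 and 10 (median -0.04). Under median scaling the respiratory chain median was 1.24 and those of the other lists 1.16, 0.71 and 1.15, above the 0.58 of all genes there. Mrps5, of the mitochondrial ribosome, fell by 1.11, but its other probe read 0.30. Ptbp1, a splicing regulator, rose by 1.10 on its brightest probe, while 5 of its other probes read from -0.35 to -0.09. Rpl22 fell by 1.69 (log2, adjusted p 7.5e-15). Of 19 aminoacyl-tRNA synthetase genes 5 rose and 9 fell (median -0.26), but that median was 0.92 under median scaling, 0.34 above that of all genes. Iars, of isoleucine charging, rose by 0.88, and Vars, of valine charging, fell by 0.94 and lay at 0.33 under median scaling. Rpl22, Uqcrq and Mrps5 missed the threshold under median scaling.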
